A study of Homo sapiens with 12 samples.

Results

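The aminoacyl-tRNA synthetases, the enzymes that join each amino acid to its tRNA, were examined in MOLM-13, a human acute myeloid leukemia (AML) cell line. The 35 genes were taken from a list of symbols, 19 for enzymes of the cytosol and 16 for enzymes of the mitochondrion (symbols ending in 2), and all 35 were found among the 46639 gene symbols of the deposited table. With few exceptions, each enzyme recognises a single amino acid and the tRNAs that carry it, spends ATP to activate the amino acid, and hands the charged tRNA to the ribosome. The cytosol and the mitochondrion translate separately, so most amino acids have a gene for each compartment, and all of these genes lie in the nucleus. GARS1 and KARS1 also serve the mitochondrion and are counted with the cytosolic genes throughout. In many cells the cytosolic genes are known to be raised as a group by ATF4, a transcription factor of the amino acid response, when charged tRNA runs short.

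RNA sequencing gave 12 libraries in 4 groups of 3. The groups were untreated cells and cells given 100 nM decitabine (DAC, which traps and depletes DNA methyltransferases), 1 µM all-trans retinoic acid (ATRA, a ligand of the retinoic acid receptors), or both (DAC+ATRA). All groups grew in medium with GM-CSF, a myeloid growth factor, and no library with solvent alone was among them. The methods of the study do not name GM-CSF among the additions to the medium. The labels give 96 h for untreated cells and 72 h for the 3 treated groups, whereas the methods of the study give 72 h for the harvest. If the labels hold, time and treatment cannot be told apart in any comparison that includes untreated cells. DAC+ATRA against DAC and DAC+ATRA against ATRA compare groups with the same 72 h label. The methods also place ATRA on the last day of treatment, a shorter exposure than the label states. The replicates were technical triplicates of a single cell line, so the p-values below measure the spread within 1 experiment.

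Between 4.67 and 11.9 M (mega) reads could be recovered per library, with 4.67 to 7.16 M in the groups that received DAC and 8.36 to 11.9 M in the others. Values are normalised counts, which are reads divided by a size factor per library. The myeloid genes CD33, SPI1 and CSF1R held at least 302 normalised counts in every library, PTPRC held 5.11 to 50.1 and ITGAM 5.65 to 63.5, whereas CD3E, MS4A1, HBB and EPCAM held at most 3.82. Some myeloid and stromal markers moved with the groups. LYZ, the lysozyme gene, averaged 41630 in untreated cells, 153300 after DAC, 6819 after ATRA and 40820 after both drugs. MPO averaged 1513 in untreated cells, 22030 after DAC, 805 after ATRA and 10420 after both drugs. Other myeloid markers were higher after ATRA. CD33, SPI1, CSF1R and ITGAM averaged 372, 341, 566 and 9.58 in untreated cells and 549, 403, 924 and 57.4 after ATRA. PTPRC averaged 26.5 and 22.5. COL1A1, a collagen gene of fibroblasts, averaged 8.03 in untreated cells, 78.98 after ATRA and 48.6 after both drugs. Whether depth or a shift in cell state had a part in the synthetase results was not tested. In such bulk samples, fewer cells of a kind and less RNA per cell cannot be told apart.

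The reads were counted per transcript, and reads shared by several transcripts seem to be missing, so levels cannot be compared between genes. In total, 11 of the 35 genes had 1 transcript row, with mean values of 76.6 to 7920, and 24 had more, up to 19. The rows of VARS2, for mitochondrial valyl-tRNA, held no read in any library, VARS1, its cytosolic partner, held 0 or 1 read, and CARS1, for cytosolic cysteinyl-tRNA, held 0 to 6. These 3 genes were not tested. The other 32 (17 cytosolic, 15 mitochondrial) passed a filter of 10 normalised counts in 3 or more libraries, and 6 of them had a mean under 50. The enzymes for aspartate are not among the listed genes and were not analysed here.

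The promoters are shown first because several cytosolic genes hold the same short motif there. The CARE motif, TGATGNAA with N for any base, is the core of the element bound by ATF4 and its C/EBP partners. It was searched on both strands in RefSeq promoter windows (GRCh38.p14) that run from 250 bases before to 50 bases after each annotated start, of which 30 of the 35 genes had at least 1. The motif was present in 7 of 16 cytosolic genes and in 1 of 14 mitochondrial genes, against 4.46% of the 27305 genes with a window. The 8 stretches follow in the direction of the gene, 5′ to 3′, with the motif in capitals, which reads TTGCATCA or TTTCATCA where it lies on the opposite strand.
AARS1: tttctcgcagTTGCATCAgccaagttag
GARS1: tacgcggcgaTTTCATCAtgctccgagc
IARS1: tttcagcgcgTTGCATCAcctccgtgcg
CARS1: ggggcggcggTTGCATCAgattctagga
MARS1: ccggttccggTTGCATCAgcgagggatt
NARS1: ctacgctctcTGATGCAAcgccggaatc
TARS1: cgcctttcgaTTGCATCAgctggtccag
YARS2: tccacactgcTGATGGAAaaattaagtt

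The stretch of AARS1 lies at chr16:70289676-70289703 on the minus strand, that of GARS1 at chr7:30594835-30594862 on the plus strand and that of IARS1 at chr9:92293693-92293720 on the minus strand. Counted from the start of transcription in the window, the motif itself spans −187 to −180 in AARS1, −33 to −26 in GARS1 and −13 to −6 in IARS1. The other stretches lie at chr11:3057408-3057435 (CARS1, minus), chr12:57488054-57488081 (MARS1, plus), chr18:57621805-57621832 (NARS1, minus), chr5:33440957-33440984 (TARS1, plus) and chr12:32756077-32756104 (YARS2, minus). A match describes these letters only and is neither a bound site nor a cause of a change. Of the 3 other motifs searched, the E-box CACGTG, which MYC and its relatives bind, was found in 1 of 16 cytosolic genes (IARS1) and 3 of 14 mitochondrial genes (CARS2, EARS2 and MARS2), against 8.77% of all genes. GAS, with the letters TTCNNNGAA, is bound by STAT factors, and the core of the ISRE (interferon-stimulated response element) by interferon regulatory factors. GAS was found in 3 of 16 cytosolic genes (CARS1, TARS1, WARS1) and 2 of 14 mitochondrial genes (PARS2, WARS2), against 9.38%, and the ISRE core in WARS1 and EARS2, against 4.38%. No match of one motif overlapped a match of another in these windows.

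WARS1, which charges tryptophan and is known as a gene that interferon gamma induces, was the only listed gene with both GAS and the ISRE core. Both lie in the window of its downstream start, on the minus strand of chromosome 14, at chr14:100375471-100375499 and chr14:100375383-100375412.
WARS1, GAS: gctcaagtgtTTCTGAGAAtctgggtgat
WARS1, ISRE core: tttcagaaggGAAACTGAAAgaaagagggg

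The first comparison asked what ATRA alone did. ATRA lowered 6 cytosolic synthetases (AARS1, GARS1, IARS1, EPRS1, FARSB and YARS1) and 1 mitochondrial one (MARS2), and it raised WARS1. Calls refer to an adjusted p under 0.01 in a limma fit over 10642 protein-coding genes, and changes are differences on the log2(normalised count + 1) scale. Over all listed genes this was 8 of 32 called, or 25%, against 26% of all genes tested, so the count itself does not set the synthetases apart. By direction, 7 of 32 were lower, against 14% of all genes, and 1 was higher, against 12.1%. Among the cytosolic genes 7 of 17 were called (41.18%), and among the mitochondrial genes 1 of 15 (6.667%). This difference between the compartments was not tested.

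**Figure D1:**
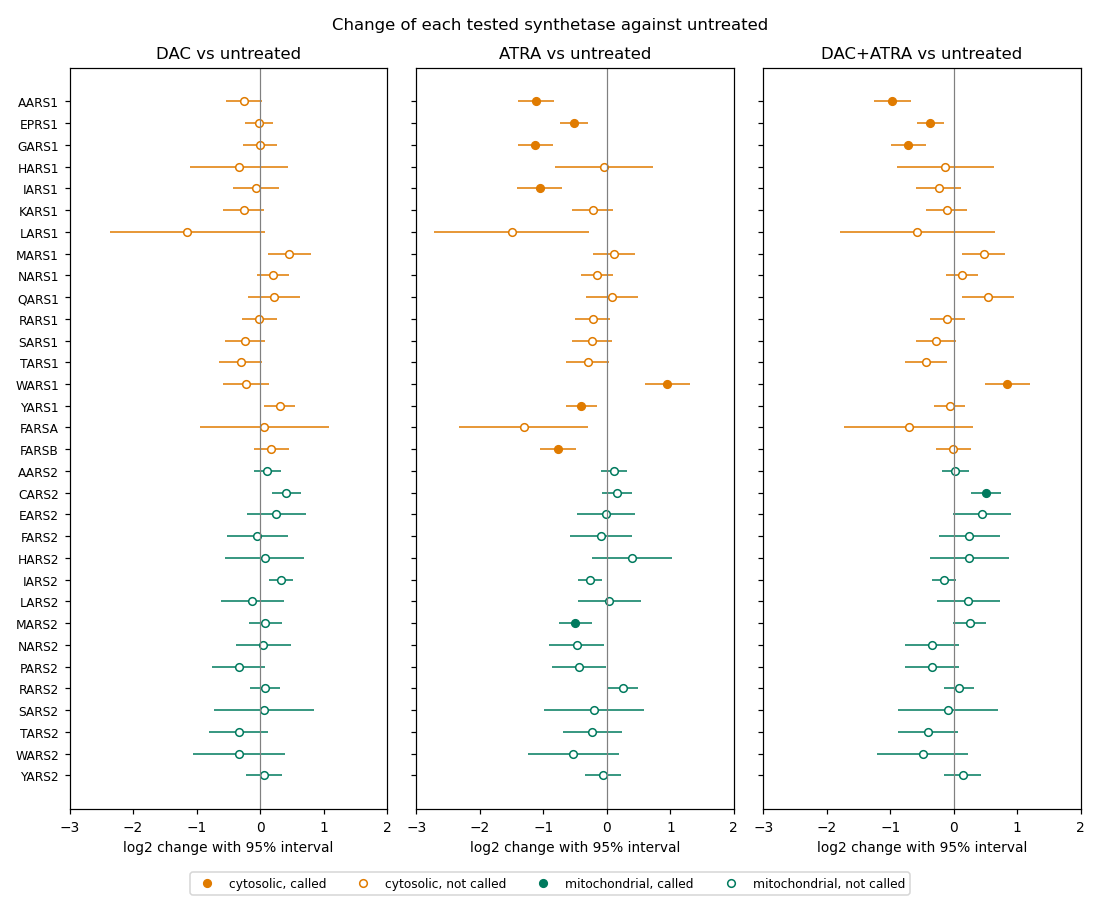
Log2 change of each of the 32 tested synthetases (rows) against untreated with DAC, ATRA and DAC+ATRA (panels), with 95% intervals from limma over 3 libraries a group. Filled points were called at an adjusted p under 0.01, none with DAC, 8 with ATRA and 5 with DAC+ATRA. Cytosolic genes are in orange and mitochondrial genes in green.

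Of the cytosolic enzymes, the alanyl and glycyl enzymes showed the largest called decreases with ATRA. AARS1 (chr16:70251983-70289707) charges alanine and held 3183, 3531 and 3240 normalised counts in untreated libraries 1 to 3 and 1717, 1449 and 1420 with ATRA. All 3 ATRA libraries lay below every untreated library. The log2 change was -1.12 ± 0.14 (SE, n = 3 per group; limma adjusted p = 1.99e-06). GARS1 (chr7:30580533-30634033), whose single gene serves the cytosol and the mitochondrion, held 3505, 3312 and 2711 normalised counts in untreated cells and 1763, 1352 and 1265 with ATRA. Again the groups did not overlap. Its log2 change was -1.13 ± 0.13 (limma adjusted p = 1.11e-06).

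IARS1 (chr9:92210207-92293854), the cytosolic isoleucyl enzyme, fell by a like amount at much lower counts. It held 194, 192 and 208 normalised counts in untreated cells and 98.6, 105 and 81.1 with ATRA. The ATRA libraries stood well apart from the untreated ones, and the log2 change was -1.06 ± 0.17 (limma adjusted p = 5.71e-05). Like EPRS1, it belongs to the large complex that holds several cytosolic synthetases together.

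EPRS1 (chr1:219968600-220046530) encodes a fused enzyme that charges both glutamate and proline. It held 9649, 9318 and 8459 normalised counts in untreated cells and 6787, 6551 and 5851 with ATRA. The ATRA libraries were all lower, by a smaller step than in AARS1 or GARS1, with a log2 change of -0.52 ± 0.10 (limma adjusted p = 0.000594). FARSB (chr2:222566899-222656092) is the beta subunit of the cytosolic phenylalanyl enzyme, and its values went from 1119, 954 and 931 to 712, 529 and 535 normalised counts. The groups were separate, and the log2 change was -0.77 ± 0.13 (limma adjusted p = 0.000148). FARSA, the alpha subunit, was barely detected, with 8.78 to 21.0 normalised counts in untreated cells and 3.72 to 8.36 with ATRA, and its change of -1.31 ± 0.48 was not called (limma adjusted p = 0.0396).

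YARS1 (chr1:32775237-32818031), the tyrosyl enzyme, gave the weakest of these calls. It held 1488, 1629 and 1511 normalised counts in untreated cells and 1348, 1107 and 1063 with ATRA. ATRA replicate 1 sat close below the untreated libraries, and the log2 change of -0.40 ± 0.11 passed narrowly (limma adjusted p = 0.0094). The call was lost when any of 9 libraries was left out, namely each untreated and each DAC+ATRA library, DAC replicate 2 and ATRA replicates 2 and 3, with adjusted p from 0.0106 to 0.0531.

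MARS2 (chr2:197705369-197708395), which charges methionine in the mitochondrion, was the only mitochondrial gene called with ATRA. It held 492, 509 and 538 normalised counts in untreated cells and 409, 323 and 360 with ATRA. The log2 change was -0.50 ± 0.12 (limma adjusted p = 0.00343). Without untreated replicate 2 or 3, or without ATRA replicate 2 or 3, the adjusted p rose to between 0.0123 and 0.0259.

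**Figure D2:**
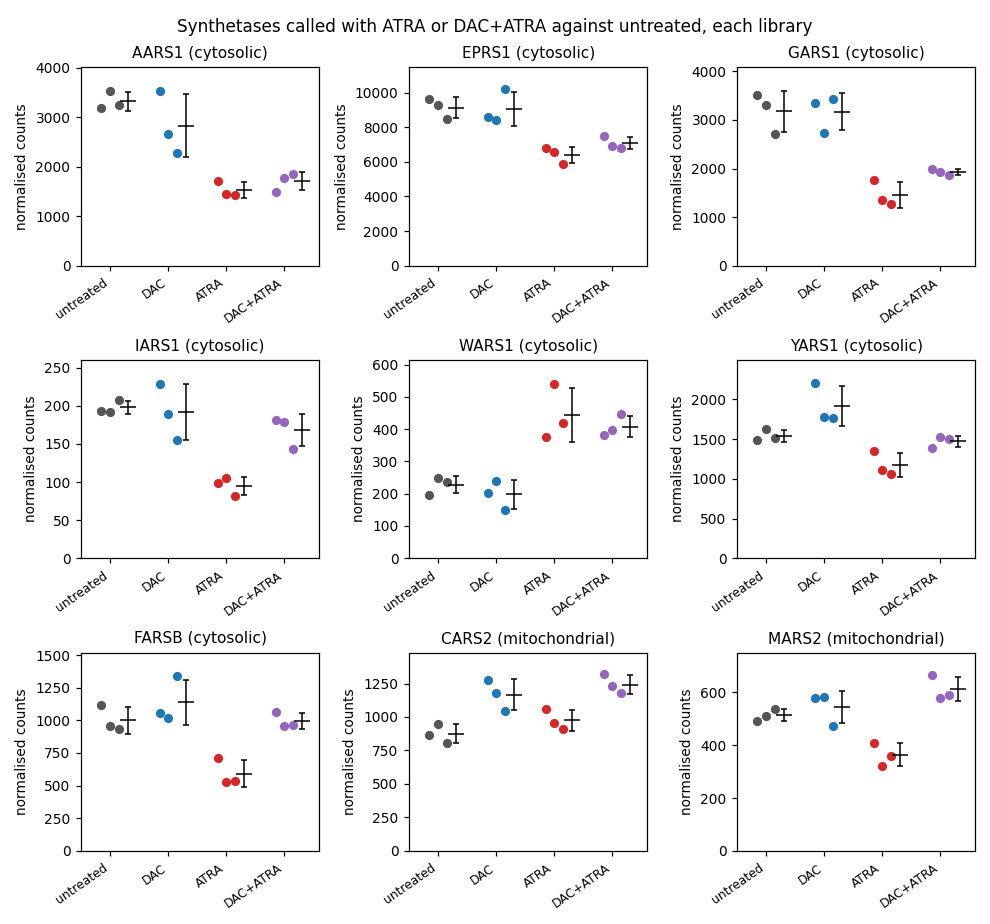
Normalised counts of the 9 synthetases called with ATRA or DAC+ATRA against untreated, each point being 1 library and the bars the mean ± SD of 3 libraries. In the ATRA group AARS1, GARS1 and IARS1 sit at about 1529, 1460 and 94.9 on average, against 3318, 3176 and 197.9 in untreated cells, and WARS1 sits at 444.3 against 227.5.

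WARS1 (chr14:100333790-100376805) moved against the other called cytosolic genes. It held 198, 248 and 236 normalised counts in untreated cells, 204, 240 and 150 with DAC, 375, 539 and 419 with ATRA and 382, 396 and 446 with DAC+ATRA. Every library with ATRA lay above every library without it. Against untreated cells the log2 change was 0.95 ± 0.17 for ATRA (limma adjusted p = 0.000188) and 0.84 ± 0.17 for the combination (limma adjusted p = 0.000575). Between DAC+ATRA and DAC it was 1.06 ± 0.17 (limma adjusted p = 8.64e-05). With DAC alone it was -0.22 ± 0.17 and not called.

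The reads of WARS1 were spread over 6 transcript rows, and these did not move alike. WARS1-238 starts at base 100375347, the downstream start whose window holds the GAS and ISRE core letters printed above. It held 3.89, 8.12 and 5.02 normalised counts in untreated cells, 3.82, 6.27 and 3.27 with DAC, 52.9, 49.9 and 41.0 with ATRA, and 11.2, 21.4 and 6.13 with DAC+ATRA. The ATRA libraries thus stood far above all others, including those with both drugs. WARS1-204, which begins at the same base, averaged 61.4 ± 26.6 in untreated cells, 66.0 ± 44.6 after DAC, 131 ± 51.0 after ATRA and 172 ± 21.0 after both drugs (SD, n = 3), so here the combination was not below ATRA.

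WARS1-202, from the most upstream start, moved least in proportion, with means of 85.2 ± 5.65 in untreated and 105.5 ± 24.9 in ATRA (SD, n = 3), and the libraries of both groups overlapped. WARS1-232 went from 14.4 ± 2.68 to 39.0 ± 8.36. Single rows were not tested. Because no row held more than 33.7% of the reads, the gene's change depends on how rows are added. With only the highest row of each gene, here WARS1-204, the log2 changes were 1.11 with ATRA, 1.57 with DAC+ATRA and 1.74 for DAC+ATRA against DAC, as large as or larger than those of the summed gene. None was called on that row, with adjusted p from 0.0134 to 0.0934.

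**Figure D3:**
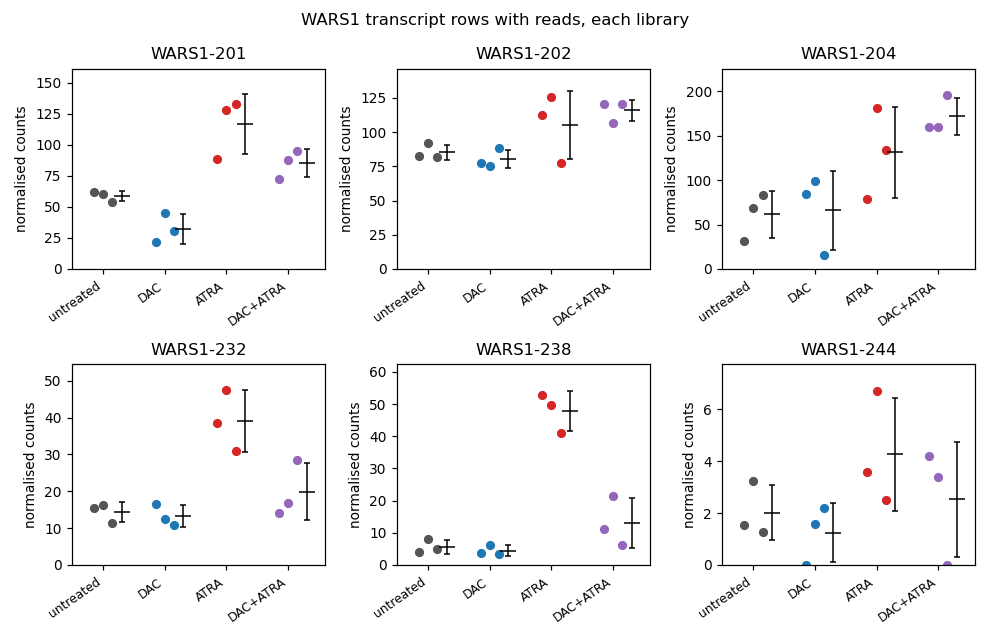
Normalised counts of the 6 WARS1 transcript rows with reads, each point being 1 library and the bars the mean ± SD of 3 libraries. WARS1-238 lies between 40.96 and 52.86 with ATRA and at 21.39 or below in every other library, while WARS1-202 overlaps between untreated and ATRA.

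The listed enzymes were then compared between compartments. With ATRA, the median change was -0.30 (log2) over 17 cytosolic genes, -0.09 over 15 mitochondrial genes and -0.04 over all genes tested. Of the values, 14 of 17 cytosolic and 10 of 15 mitochondrial ones were below 0, a share not counted over all genes. The contrast of the medians was also taken in each library as the cytosolic minus the mitochondrial median, relative to the untreated mean of each gene. It was 0.02, 0.05 and -0.05 in the untreated libraries and -0.24, -0.33 and -0.22 with ATRA. It was -0.13, -0.18 and 0.03 with DAC, and -0.26, -0.10 and -0.18 with DAC+ATRA. All 6 libraries with ATRA lay below all 3 untreated libraries, as did DAC replicates 1 and 2, and the pooled SD within groups was 0.078. Because each gene was set against its untreated mean, the untreated values lie near 0 by construction. The 95% interval of the ATRA change lay within a 2-fold change in either direction for 10 of 17 cytosolic and 13 of 15 mitochondrial genes. Of the 7 cytosolic genes whose interval reached past it, AARS1, GARS1, IARS1, FARSB and WARS1 were called, and FARSA and LARS1 were low and not called.

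Matched by amino acid, the largest gaps between the compartments with ATRA among genes with a called change were those of alanine, tryptophan and isoleucine. For alanine, AARS1 changed by -1.12 and AARS2 by 0.11 on the log2 scale. For isoleucine the values were -1.06 for IARS1 and -0.26 for IARS2, and for tyrosine -0.40 for YARS1 and -0.06 for YARS2. Tryptophan went the other way, with 0.95 for WARS1 and -0.53 for WARS2, a gene of 13.4 to 23.5 normalised counts in these groups. In phenylalanine, which has a single-chain enzyme in the mitochondrion, FARSB changed by -0.77 and FARS2 by -0.09.

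Methionine was reversed, with 0.11 for MARS1 and -0.50 for MARS2. EPRS1, at -0.52, has a separate mitochondrial counterpart for each of its activities, and these were at -0.01 for EARS2 (glutamate) and -0.44 for PARS2 (proline). The pairs of serine (-0.24 for SARS1, -0.20 for SARS2) and threonine (-0.30 for TARS1, -0.23 for TARS2) lay close together, and none of these 4 genes was called. The remaining pairs had no called gene either, with -0.15 for NARS1 and -0.47 for NARS2 (asparagine), -0.22 for RARS1 and 0.25 for RARS2 (arginine), and -0.05 for HARS1 and 0.40 for HARS2 (histidine). HARS1 and HARS2 stand head to head on opposite strands and share 108 bases. The leucine pair was at -1.50 for LARS1 and 0.04 for LARS2, but LARS1 held only 7.78 to 13.2 normalised counts in untreated cells and 2.69 to 3.34 with ATRA, and it was not called (limma adjusted p = 0.0509). QARS1, for glutamine, has no mitochondrial partner on the list, since mitochondria make this charged tRNA through EARS2 and a second enzyme, and it was at 0.07.

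The complex of cytosolic synthetases is represented by 7 tested genes. Of these, IARS1 and EPRS1 were lower with ATRA. KARS1 (-0.22, lysine), RARS1 (-0.22), LARS1 (-1.50), MARS1 (0.11) and QARS1 (0.07) were not called. AARS1, GARS1, FARSB, YARS1 and WARS1, the other called cytosolic genes, encode enzymes outside it. Set against the promoter letters above, AARS1, GARS1 and IARS1 carry a CARE match and were lower with ATRA, whereas MARS1, NARS1 and TARS1 carry one and were not called. EPRS1, FARSB and the mitochondrial MARS2 were lower without a match in their windows, and YARS1 was lower but had no window. Of the other genes with a match, YARS2 was not called and CARS1 was not tested.

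The second comparison asked what DAC alone did. None of the 32 synthetases was called with DAC, against 7.97% of all genes tested (limma, adjusted p under 0.01). At an unadjusted p under 0.05 there were 4, at an adjusted p under 0.05 there were 2, and at an adjusted p under 0.01 DESeq2 called 2 and edgeR 0. Leaving out DAC replicate 3 gave 2 calls. The interval of the change lay within a 2-fold change in either direction for 28 of 32 genes, and medians were -0.02 over cytosolic and 0.06 over mitochondrial genes, against -0.004 over all genes.

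The mitochondrial enzymes for cysteine and isoleucine came nearest to a call with DAC. CARS2 held 862, 950 and 809 normalised counts in untreated cells and 1276, 1176 and 1044 with DAC, a log2 change of 0.41 ± 0.11 (limma adjusted p = 0.0145). IARS2 held 2315, 2505 and 2455 normalised counts in untreated cells and 3118, 2893 and 3150 with DAC, a log2 change of 0.33 ± 0.09 (limma adjusted p = 0.0168). In both genes every DAC library lay above every untreated library. The genes that ATRA lowered most showed no such shift with DAC. AARS1 held 3525, 2667 and 2283 normalised counts, GARS1 3341, 2738 and 3441, and IARS1 229, 190 and 156. All 3 overlapped with their untreated values, and their log2 changes were -0.25, -0.00 and -0.06.

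The third comparison asked what both drugs together did. With DAC+ATRA, 5 of 32 synthetases were called against untreated (15.62%), against 28.9% of all genes tested. AARS1, GARS1 and EPRS1 were lower (3 of 32, against 14.4% of all genes) and WARS1 and CARS2 were higher (2 of 32, against 14.5%). This comparison shares the untreated libraries with the ATRA comparison, so the changes are given side by side and not as a second observation. AARS1 held 1496, 1766 and 1848 normalised counts, and its log2 change was -0.97 ± 0.14 (limma adjusted p = 1.29e-05). GARS1 held 1984, 1921 and 1863, a log2 change of -0.72 ± 0.13 (limma adjusted p = 0.000214). EPRS1 held 7493, 6927 and 6821, a log2 change of -0.37 ± 0.10 (limma adjusted p = 0.00824).

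All 3 genes stayed below every untreated library with both drugs. The EPRS1 call was lost without untreated replicate 1 or 2, ATRA replicate 2 or any of the DAC+ATRA libraries, with adjusted p from 0.0119 to 0.0425. CARS2 (chr13:110641412-110713603), which charges cysteine in the mitochondrion, held 1320, 1228 and 1179 normalised counts with both drugs and 1061, 958 and 907 with ATRA. Its log2 change with both drugs was 0.51 ± 0.11 (limma adjusted p = 0.00102), and with ATRA alone 0.16 ± 0.11, not called.

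Other genes that ATRA alone had lowered lay closer to the untreated level with both drugs than with ATRA alone. IARS1 held 182, 179 and 144 normalised counts, FARSB 1067, 953 and 967, and YARS1 1390, 1526 and 1501. Their log2 changes against untreated were -0.24, -0.01 and -0.07, and none was called. Every IARS1 value still lay below all 3 untreated libraries, whereas FARSB and YARS1 overlapped with untreated. MARS2 held 665, 580 and 591 normalised counts, above all 3 untreated libraries, with a log2 change of 0.25 ± 0.12 that was not called (limma adjusted p = 0.114).

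What DAC added to ATRA was tested by setting DAC+ATRA against ATRA in the same fit. Here 3 of 32 synthetases were higher with DAC+ATRA and none was lower, against 11.9% of all genes called and 6.47% called higher. MARS2 rose by 0.75 ± 0.12 on the log2 scale (limma adjusted p = 0.000217), FARSB by 0.76 ± 0.13 (limma adjusted p = 0.00042) and IARS1 by 0.82 ± 0.17 (limma adjusted p = 0.00174). In each of the 3 genes every DAC+ATRA library lay above every ATRA library. The same ATRA libraries enter the comparison of ATRA against untreated, in which all 3 genes were called lower. The fall and the rise are therefore not separate observations. The IARS1 call was lost without ATRA replicate 3 or DAC+ATRA replicate 1 or 2 (adjusted p from 0.0121 to 0.0134), and 5 genes were called without DAC replicate 3. GARS1 rose by 0.41 ± 0.13 without a call (limma adjusted p = 0.0304), whereas AARS1 differed by 0.16 ± 0.14 and WARS1 by -0.11 ± 0.17.

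What ATRA added to DAC is a separate measurement of the ATRA effect, since no library is shared with the comparison of ATRA against untreated. Against DAC, 4 of 32 synthetases were called (12.5%), against 18.8% of all genes tested. AARS1, GARS1 and IARS2 were lower (3 of 32, against 9.74% of all genes) and WARS1 was higher (1 of 32, against 9.04%). AARS1 changed by -0.71 ± 0.14 (limma adjusted p = 0.000507) and GARS1 by -0.72 ± 0.13 (limma adjusted p = 0.000325), so both fell with ATRA whether DAC was present or not. IARS2 (chr1:220094132-220148041), the mitochondrial isoleucyl enzyme, held 2259, 2165 and 2119 normalised counts with both drugs and 2103, 2049 and 1924 with ATRA. It stood highest with DAC alone, and the log2 change from there was -0.49 ± 0.09 (limma adjusted p = 0.00042).

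EPRS1, YARS1, IARS1 and FARSB were not called in this comparison. EPRS1 changed by -0.35 ± 0.10 (limma adjusted p = 0.0156) and YARS1 by -0.37 ± 0.11 (limma adjusted p = 0.0188), beside -0.52 and -0.40 without DAC. IARS1 was at -0.18 ± 0.17 and FARSB at -0.18 ± 0.13, beside -1.06 and -0.77 without DAC. Over the 32 genes, the ATRA change without DAC and the ATRA change with DAC were related with a Pearson r of 0.59 (Spearman rho 0.62), and 23 of 32 had the same sign. Over cytosolic genes r was 0.62 (n = 17) and over mitochondrial genes 0.44 (n = 15). These are correlations across genes, which are not independent replicates and which share libraries and depth within a comparison. The same values over all genes tested were not computed, so this relation is not shown to be particular to the synthetases.

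**Figure D4:**
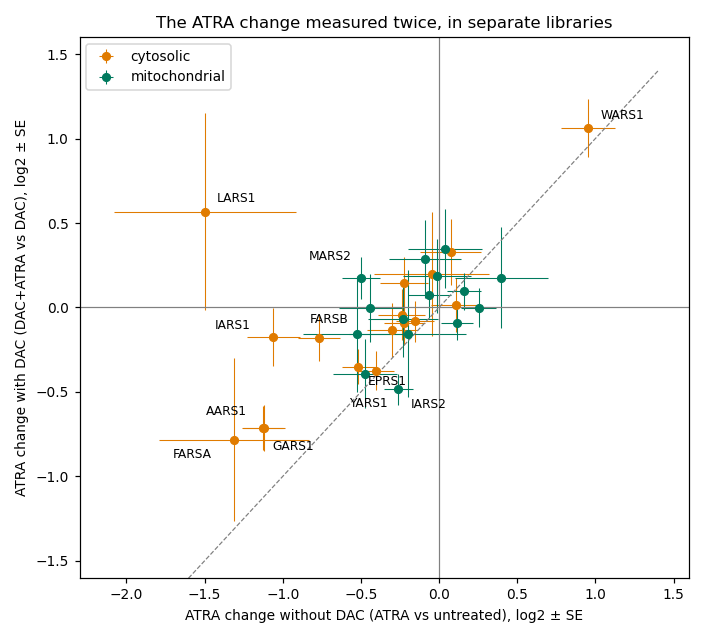
ATRA change of each of the 32 tested synthetases without DAC (ATRA minus untreated, horizontal axis) and with DAC (DAC+ATRA minus DAC, vertical axis), log2 ± SE, with the line of equal change dashed. AARS1 and GARS1 lie at about -1.1 and -0.7 and WARS1 at 0.95 and 1.06, while IARS1 and FARSB lie at -0.18 on the vertical axis and MARS2 above 0.

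The difference between these measurements is the interaction, equal to the ATRA change in the presence of DAC less that in its absence. It includes the untreated group, so if the time labels hold, a time effect cannot be told apart from it. None of the 32 synthetases had a called interaction, against 1.6% of all genes tested (limma, adjusted p under 0.01). There were 6 at an unadjusted p under 0.05 and 2 at an adjusted p under 0.05, and at an adjusted p under 0.01 DESeq2 called 1 and edgeR 0. The 2 were IARS1, at 0.89 ± 0.24 (limma adjusted p = 0.0458), and MARS2, at 0.67 ± 0.18 (limma adjusted p = 0.0369). DESeq2 called MARS2 (adjusted p = 0.00985). Estimates were above 0 for 16 of 17 cytosolic and 10 of 15 mitochondrial genes, with medians of 0.24 and 0.14, against 0.03 over all genes. The share of all genes above 0 was not counted, and the estimates rest on the same libraries. AARS1 and GARS1 were both at 0.41, with intervals of 0.01 to 0.81 and 0.03 to 0.80, and neither was called.

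Partners of tRNA charging were described on a separate list of scaffold proteins, editing factors, mitochondrial amidation factors, elongation factors and tRNA export, of which 20 genes were tested. ATRA lowered 2 of them (10%, against 26% of all genes called), DAC none (against 7.97%), and DAC+ATRA lowered 5 and raised 1 (30%, against 28.9%). XPOT, which exports mature tRNA from the nucleus, averaged 5915 ± 699 in untreated cells, 5399 ± 595 after DAC, 2713 ± 386 after ATRA and 3432 ± 249 after both drugs (SD, n = 3). Its log2 change was -1.13 ± 0.12 with ATRA (limma adjusted p = 4.54e-07) and, with both drugs, -0.78 ± 0.12 (limma adjusted p = 3.99e-05). EEF1E1, a scaffold protein of the synthetase complex, changed by -1.19 ± 0.18 with ATRA (limma adjusted p = 3.88e-05) and, with both drugs, by -0.84 ± 0.18 (limma adjusted p = 0.00123).

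The other scaffold proteins of the complex were not called with ATRA alone. AIMP1 was at -0.08 with ATRA, not called, and at -0.54 ± 0.14 with DAC+ATRA (limma adjusted p = 0.00467), and AIMP2 was at -0.14 with ATRA and higher with DAC+ATRA, at 0.61 ± 0.18 (limma adjusted p = 0.00911). TARS3, a second threonyl enzyme of the cytosol that is not among the 35, went from a mean of 108 ± 17.9 in untreated to 24.1 ± 6.94 with DAC+ATRA (SD, n = 3), a log2 change of -2.15 ± 0.34 (limma adjusted p = 4.65e-05). SEPSECS, which makes selenocysteine on its tRNA, changed by -0.55 ± 0.11 with DAC+ATRA (limma adjusted p = 0.000465).

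The genes listed for the amino acid response, in which ATF4 acts, gave larger median changes than the synthetases. The list includes ATF4 itself and the kinase gene EIF2AK4, so it does not measure the output of ATF4 alone. Of 14 tested, ATRA lowered 8 and raised 2 (71.43%, against 26% of all genes called), DAC lowered 4 (28.57%, against 7.97%), and DAC+ATRA lowered 6 (42.86%, against 28.9%; limma, adjusted p under 0.01). The median changes were -0.79 with ATRA, -0.39 with DAC and -0.59 with DAC+ATRA. TRIB3, a pseudokinase gene that ATF4 induces, averaged 2612 ± 70.9 in untreated cells, 830 ± 92.3 after DAC, 203 ± 16.6 after ATRA and 199.6 ± 15.4 after both drugs (SD, n = 3), a log2 change of -3.68 ± 0.12 with ATRA (limma adjusted p = 1.02e-14). CHAC1, which degrades glutathione, went from 70.7 ± 13.2 to 6.66 ± 2.00 with ATRA (SD, n = 3), and PSAT1, of serine synthesis, from 786 ± 106 to 147 ± 57.0. Their log2 changes were -3.25 ± 0.34 (limma adjusted p = 3.35e-07) and -2.47 ± 0.21 (limma adjusted p = 1.51e-08).

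ASNS, PHGDH, SLC7A5, SLC3A2 and SESN2, for asparagine and serine synthesis, amino acid uptake and leucine sensing, were also lower with ATRA, by -0.75 to -1.90. The largest of these, -1.90 for PHGDH, had a 95% interval of -2.98 to -0.81. PHGDH held only 7.53 to 17.1 normalised counts in untreated cells and 0.896 to 5.02 with ATRA. ASNS held 22.7 to 33.25 in untreated cells and 8.93 to 11.7 with ATRA. The changes of PHGDH and ASNS thus rest on few reads. ATF4 mRNA itself was not called, with means of 729 ± 53.6 in untreated cells, 692 ± 131 after DAC, 898 ± 58.2 after ATRA and 692 ± 29.2 after both drugs (SD, n = 3) and a log2 change of 0.30 with ATRA. ATF4 is known to be regulated through translation, which these libraries do not measure. The genes raised by ATRA were PPP1R15A, at 0.76 ± 0.12 (limma adjusted p = 3.62e-05), whose product helps to reverse the stress signal upstream of ATF4, and EIF2AK4, at 0.39 ± 0.11 (limma adjusted p = 0.00744), the kinase that senses uncharged tRNA. With both drugs PPP1R15A was instead lower than in untreated cells, at -0.73 ± 0.12 (limma adjusted p = 6.13e-05). ATF5, DDIT3 and SLC7A11 were at -0.24, 0.04 and -0.28 with ATRA and were not called. With DAC alone, TRIB3 changed by -1.66 ± 0.12 (limma adjusted p = 1.5e-08), PPP1R15A by -0.95 ± 0.12 (limma adjusted p = 1.36e-05) and SESN2 by -0.69 ± 0.17 (limma adjusted p = 0.00969), while no synthetase was called. With DAC+ATRA the largest called changes were those of TRIB3 (-3.71 ± 0.12, limma adjusted p = 1.24e-14), CHAC1 (-2.98 ± 0.34, 1.08e-06) and PSAT1 (-1.95 ± 0.21, 4.4e-07).

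**Figure D5:**
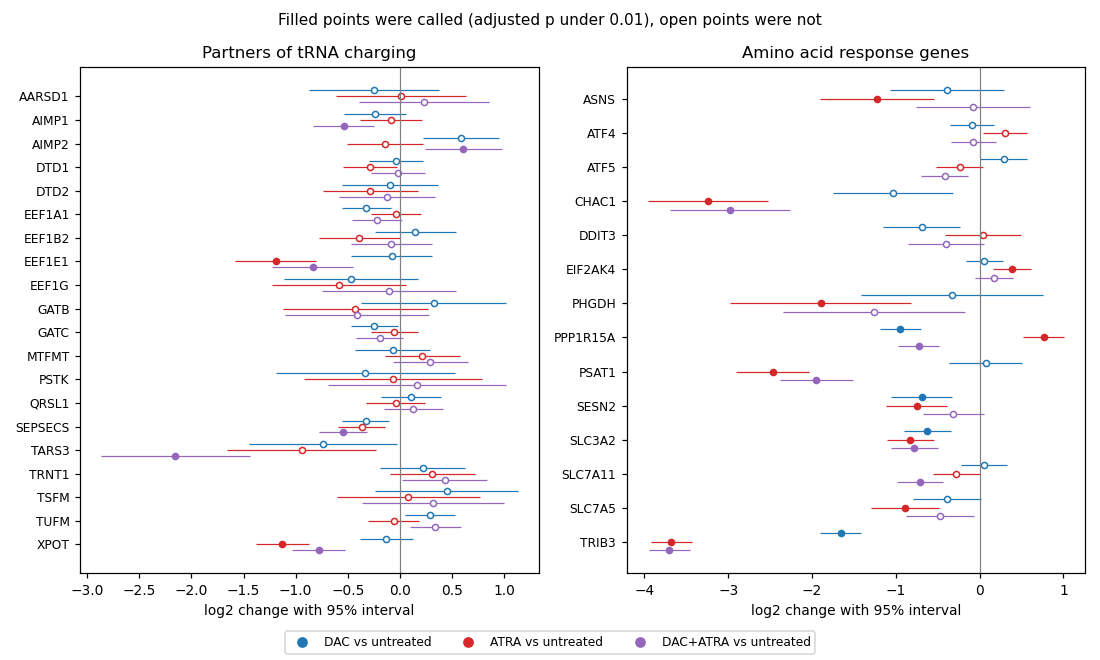
Log2 change with 95% interval of 20 partners of tRNA charging (left) and 14 amino acid response genes (right) against untreated, with DAC in blue, ATRA in red and DAC+ATRA in purple. Filled points were called at an adjusted p under 0.01, and XPOT and EEF1E1 on the left and TRIB3, CHAC1 and PSAT1 on the right are called with both ATRA and DAC+ATRA.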

How the data were processed

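RNA of 12 MOLM-13 libraries was measured, 3 per group. The authors depleted ribosomal RNA, prepared strand-specific libraries and, per the labels and methods, used FastQC, STAR, HTSeq and DESeq2 with hg38. The deposited values are a normalised signal per Ensembl transcript (100502 rows), obtained by the authors by dividing each library's reads by 1 size factor. After multiplication by that factor, 100% of values came out as whole reads in every library (tolerance 0.1 read), which gave the recovered reads. Columns headed CTRL were taken as the untreated libraries.

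Rows were summed per gene symbol. Coordinates and biotypes came from GENCODE release 44 (GRCh38), which held 88.9% of the row identifiers without version. The fit held 10642 protein-coding genes that reached 10 normalised counts in 3 or more libraries. It used lmFit and eBayes (trend) of limma 3.58.1, under R 4.3.3, on log2(normalised count + 1), all 12 libraries together and no covariate, with Benjamini-Hochberg adjustment within each of 6 comparisons and a threshold of 0.01 as in the study. This scale understates changes of low genes. Scripts were tested on simulated data. As alternatives, recovered reads were tested with DESeq2 1.42.0 and edgeR 4.0.16, next to other scalings, filters and pseudocounts, a block for the replicate number, and leaving out each library.

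The listed genes, the partner and response lists and the motifs were chosen with earlier results of these data known. Values per library are given for the called members with the 4 largest changes against untreated, and for the largest called in the other comparisons. The remaining called members and those closest to a call were added after their values were seen. Of the partner and response genes, the 3 largest called changes were named per treatment, and others named were added after their values were seen.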

Additional observations from a re-analysis of the deposited data

Results flagged for a closer look

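TRIB3, a gene of the amino acid response, is listed because its DAC effect differed with and without ATRA by a test of the difference itself. The interaction was 1.633 ± 0.166 on the log2 scale (limma adjusted p = 8.61e-06). It includes the untreated libraries, so if the time labels hold, a time effect cannot be told apart from the interaction. DAC alone changed it by -1.66 ± 0.12, and DAC on top of ATRA by -0.02 ± 0.12, with means of 203 in ATRA and 199.6 in DAC+ATRA. Under 24 alternatives the interaction lay between 1.55 and 1.71, with adjusted p from 9.03e-17 to 0.000117. No synthetase met this criterion.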

How the results depend on the processing

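Over 23 named changes and 572 alternative values, none changed direction, 535 kept their side of the threshold, 36 lost a call and 1 gained one. AARS1 and GARS1 kept their calls with ATRA, with DAC+ATRA and with ATRA added to DAC under every alternative. The number of synthetases called with DAC was 0, and 2 at an adjusted p under 0.05 or with DESeq2 (leaving out 1 library, 0 to 2). With DAC+ATRA it was 5, and 8 at an adjusted p under 0.05 or with only the groups compared (4 to 7). Against ATRA it was 3, and 6 at an adjusted p under 0.05 (2 to 5), and for the interaction it was 0, with 2 at an adjusted p under 0.05 and 1 with DESeq2. Beside the single libraries and the block, YARS1 was lost with ATRA under both edgeR fits, TMM scaling, a pseudocount of 0.1, no filter, all gene symbols and the highest row only (adjusted p of 0.0101 to 0.0141), and EPRS1 with DAC+ATRA under no filter (0.0205) and all gene symbols (0.0104).

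The cytosolic minus mitochondrial median ranged, leaving out 1 library, from -0.18 to -0.027 with DAC, -0.30 to -0.16 with ATRA, -0.32 to -0.13 with DAC+ATRA, -0.27 to -0.051 for DAC+ATRA against DAC, 0.077 to 0.21 against ATRA and -0.017 to 0.21 for the interaction, which turned below 0 without ATRA replicate 1. With a filter of 50 normalised counts the value against ATRA was 0.055, against 0.17. The cause of these shifts was not tested.

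Replicate numbers are shared between the groups, but correlations of the deviations of same-numbered libraries ran from -0.263 to 0.114 (18 pairs, 2 over 0.1), so the numbers were not taken to pair the libraries. Between other-numbered libraries they ran from -0.165 to 0.246 (36 pairs, 5 over 0.1), highest for untreated 1 with DAC 3. Untreated 3, DAC 3 and ATRA 1 stood apart from the other libraries of their groups. Their pairs had a chi-square per gene of 21.97 to 33.8, against 4.61 to 7.902 for the remaining pair of each of these groups. A block for the replicate number does not model these differences, and their cause was not tested. With a replicate block the counts were 0 with DAC, 7 with ATRA, 4 with DAC+ATRA, 4 against DAC, 3 against ATRA and 0 for the interaction, YARS1 (adjusted p = 0.0139) and EPRS1 with DAC+ATRA (adjusted p = 0.014) being lost. Low read numbers limit LARS1, FARSA, HARS1, HARS2, SARS2 and WARS2, whose means lay under 50 normalised counts. Of the amino acid response genes, ASNS and PHGDH had means under 50 in every group, and CHAC1 in every treated group.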
